A study of Homo sapiens with 10 samples.

Results

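De novo fatty acid synthesis was followed through 10 genes, SLC25A1, ACLY, ACSS2, ACACA, ACACB, FASN, SCD, SCD5, THRSP and MLXIPL, which were chosen by name for their place in the pathway. The choice was made with earlier results of these data known. All 10 were found by symbol, each once, among the 62656 genes of the deposited table. The cells were PC3, an epithelial line from a human prostate cancer. After overnight starvation, which all libraries share, they received either DMSO, the solvent, or GW3965 at 1 µM for 24 h in RPMI-1640 with glutamine. GW3965 is a synthetic agonist of the liver X receptors (LXRs), nuclear receptors that sense oxidised cholesterol and are encoded by NR1H3 and NR1H2. There were 5 libraries of total RNA, depleted of ribosomal RNA, for each condition, and the question was which steps of fatty acid synthesis respond to the agonist. A single cell line, dose and time point was measured, and the labels do not say whether the libraries came from separate cultures, so the p-values describe the spread between these libraries.

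Cells make fatty acids from acetyl-CoA in the cytosol. Citrate leaves the mitochondrion through the carrier SLC25A1 and is split by ACLY, acetate is activated by ACSS2, the acetyl-CoA carboxylases ACACA and ACACB make malonyl-CoA, and FASN joins these units into palmitate. SCD and SCD5 then place the first double bond. SREBP-1c, a product of SREBF1, activates many of these genes and is itself a classical LXR target, while MLXIPL encodes the carbohydrate-responsive factor ChREBP and THRSP a small protein that favours lipogenesis. Prostate cancers are known for high fatty acid synthesis, with FASN among the best-studied enzymes.

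FASN and SCD rose with GW3965, by 88.3% and 79.0% of their DMSO means, and were the 2 of the 10 genes past the threshold. ACSS2 and ACACA had log2 fold changes of 0.41 and 0.32 and did not pass after adjustment, although each of the 5 GW3965 libraries lay above each of the 5 DMSO libraries for both genes. ACLY, ACACB, SLC25A1 and SCD5 had log2 fold changes between -0.03 and 0.17 and overlapping groups. THRSP and MLXIPL were near the floor of the measurement in both conditions.

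Levels are given as RPKM, reads per kilobase of gene, which the authors scaled between libraries. Fold changes are on the log2(RPKM + 0.1) scale and come from limma fitted to the 20402 genes that reached 0.5 RPKM on average over the libraries, with Benjamini-Hochberg adjustment over all of them and a threshold of 0.05. Of these genes, 0.147% passed as higher and 0.0098% as lower with GW3965, and their median log2 fold change was 0.0034. Every GW3965 library was above every DMSO library in 1.35% of the tested genes and below in 0.49%.

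The reads recovered from the RPKM values numbered 30428114 to 41635177 per library, with no difference detected between the conditions (exact permutation p = 0.968, two-sided). The RN7SL genes, which stand for the abundant 7SL RNA, took 13.7 to 21.5% of the reads in DMSO (median 20.4%) and 12.0 to 23.2% with GW3965 (median 15.2%), a difference that did not pass an exact permutation test (p = 0.310). DMSO library 1 and GW3965 libraries 1 and 2 stood apart from the other 7 on the first principal component of the abundant genes, which held 42.7% of their variance. Their scores were 9.21 to 11.9, and those of the other 7 were spread from -9.69 (DMSO library 4) to 1.29. The fit was therefore also run without these 3 libraries, a choice made after the data were seen. Of the markers of the cell type, KRT8, KRT18, KRT19 and VIM lay between 36.6 and 149 RPKM on average, EPCAM was at 1.73 RPKM and CDH1 at 0.285 RPKM. KLK3 was at 0 in all 10 libraries, and the markers of leukocytes, hepatocytes and fat cells (PTPRC, ALB and ADIPOQ) were at or below 0.0576 RPKM, while PECAM1 and COL1A1 were at 0.604 and 0.928 RPKM. In bulk RNA, fewer cells of a type and less RNA per cell cannot be told apart.

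The agonist was checked through LXR target genes. ABCA1, a cholesterol exporter, went from 3.43 ± 1.34 to 16.5 ± 2.37 RPKM (mean ± SD, n = 5) and ABCG1, another, from 1.57 ± 0.392 to 7.06 ± 0.790 RPKM, with log2 fold changes of 2.29 and 2.13. MYLIP, a ubiquitin ligase for the LDL receptor, had a log2 fold change of 0.74 (limma adjusted p = 0.00714), which did not pass without the 3 libraries that stand apart (0.68, limma adjusted p = 0.101). The log2 fold changes of ABCA1 and ABCG1 were larger than those of each of the 8 tested genes of fatty acid synthesis. Those of MYLIP and of SREBF1, also an LXR target, were both 0.74 and smaller than those of FASN (0.91) and SCD (0.85).

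The regulatory sequence of the 2 desaturase genes and of the citrate carrier is shown because they contrast a gene that rose (SCD) with its paralog and an upstream step that did not pass (SCD5 and SLC25A1). Promoter windows were at hand for 9 of the 10 genes, all but FASN. The sequences are from RefSeq on GRCh38.p14 and are limited to the bases that precede the annotated start of each gene in GENCODE 29. They lie at chr10:100346983-100347123 on the plus strand for SCD, chr4:82798858-82799046 on the minus strand for SCD5 and chr22:19178831-19178986 on the minus strand for SLC25A1, each written 5′ to 3′ on the strand of its gene. Capitals mark CCAAT, the motif of NF-Y, and GGGCGG, the GC box of the Sp factors, on either strand.
SCD: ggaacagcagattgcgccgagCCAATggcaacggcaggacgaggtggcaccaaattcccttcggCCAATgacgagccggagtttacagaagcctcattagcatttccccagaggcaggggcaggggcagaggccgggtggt
SCD5: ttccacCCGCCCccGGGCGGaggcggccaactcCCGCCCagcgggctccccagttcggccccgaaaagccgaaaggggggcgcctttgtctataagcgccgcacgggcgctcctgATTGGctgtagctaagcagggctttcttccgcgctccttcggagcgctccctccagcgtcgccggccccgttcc
SLC25A1: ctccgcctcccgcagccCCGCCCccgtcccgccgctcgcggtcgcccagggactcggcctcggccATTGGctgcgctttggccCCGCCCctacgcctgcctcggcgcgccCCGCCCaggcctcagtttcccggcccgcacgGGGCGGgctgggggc
NF-Y and the Sp factors are known partners of SREBPs at lipogenic promoters. The SCD stretch (141 bases) held 2 CCAAT motifs and no GC box. The SCD5 stretch (189 bases) held 1 CCAAT motif and 3 GC boxes, and the SLC25A1 stretch (156 bases) 1 CCAAT motif and 4 GC boxes. The windows of these genes continue past the stretches shown, and the full windows held 2 GC boxes for SCD, 4 for SCD5 and 8 for SLC25A1. Windows of ACLY, ACACA, ACACB and THRSP also held 2 CCAAT motifs, so this number was not particular to SCD. The full windows ran from 250 bases before to 50 bases after a start. In them, CCAAT was found in 10 of the 14 windows of the 9 genes and in 34.6% of all 35116 promoters. GGGCGG was found in 11 of 14 windows and in 44.95% of all promoters. The windows of ACLY overlap and hold the same CCAAT motifs and GC boxes, so the 14 windows are not all separate. A core of the sterol regulatory element (TCACNCCAC, in 1.13% of all promoters), the E-box CACGTG (7.26%) and a direct repeat of AGGTCA with a spacer of 4 bases (0.0199%) had no match on either strand in any of the 14 windows. None of these windows belongs to FASN, whose promoter was not examined. These counts describe letters in a short window and say nothing of binding or of sites elsewhere.

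The 10 genes spanned a wide range of levels. Ordered by their mean in DMSO, SCD came first, followed by FASN, ACLY, SLC25A1, ACSS2, ACACA, SCD5, ACACB, THRSP and MLXIPL. For each pair of neighbours in this order, the ranges of the 5 libraries did not overlap in either condition, except for THRSP and MLXIPL, which overlapped in both. SCD was 2.65 times FASN in DMSO and 2.52 times FASN with GW3965 in mean RPKM. FASN was 1.47 times ACLY in DMSO and 2.45 times ACLY with GW3965. SCD and FASN were above 99.1% and 98.0% of the tested genes in mean level, and ACACB, the lowest of the 8 tested genes, was near the middle, above 49.9%.

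**Figure D1:**
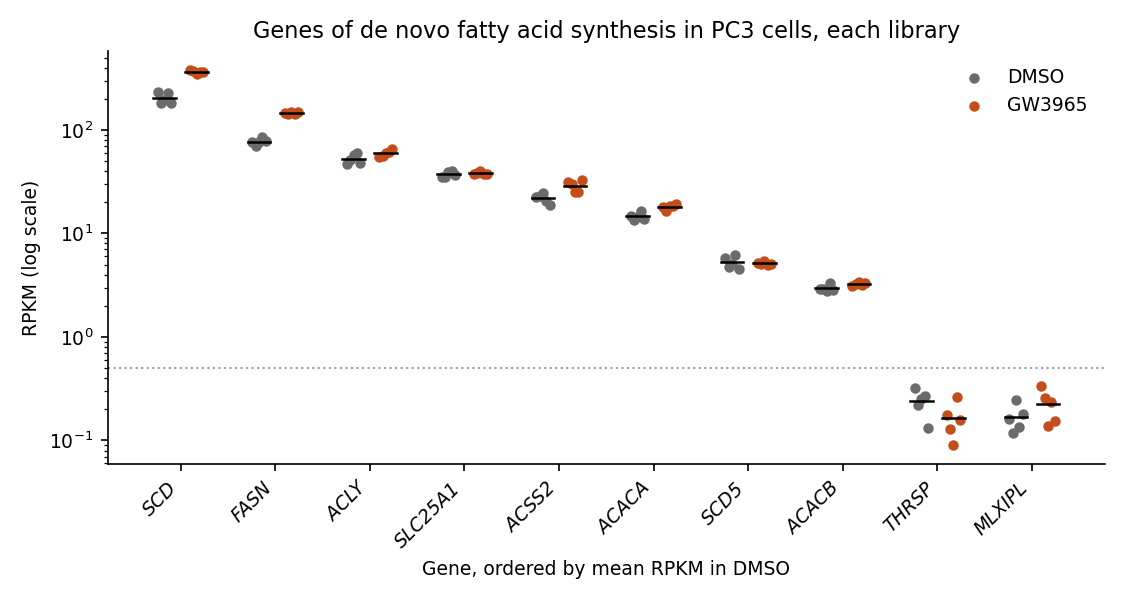
RPKM on a log axis of the 10 genes in each of the 5 DMSO (grey) and 5 GW3965 (orange) libraries, with the mean as a black line and the filter at 0.5 RPKM as a dotted line. The groups of FASN, SCD, ACSS2 and ACACA do not overlap, and THRSP and MLXIPL lie below the filter in every library.

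The first step out of the mitochondrion showed no detected change. SLC25A1 (chr22:19175575-19178830, GENCODE 29 on GRCh38) had 35.3, 35.5, 39.6, 40.1 and 36.5 RPKM in DMSO libraries 1 to 5 and 37.5, 38.4, 40.3, 37.8 and 37.5 RPKM in GW3965 libraries 1 to 5. The groups overlapped, with means of 37.4 ± 2.32 and 38.3 ± 1.17 RPKM (SD, n = 5). The log2 fold change was 0.03 with a 95% interval from -0.08 to 0.15 (limma adjusted p = 0.956), so the interval held changes up to 1.11-fold.

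ACLY (chr17:41866908-41930542), which cleaves the exported citrate, was at 46.9, 50.8, 57.6, 59.5 and 48.3 RPKM in the DMSO libraries and at 54.6, 55.5, 59.7, 61.5 and 65.1 RPKM in the GW3965 libraries. The 3 highest GW3965 libraries were above all DMSO libraries, and the other two lay within the DMSO range. The means were 52.6 ± 5.61 and 59.3 ± 4.33 RPKM, and the log2 fold change of 0.17 (SE 0.08) did not pass (limma adjusted p = 0.722). ACLY shares 156 exonic bases with the antisense gene AC125257.2, which was at 0 in all libraries, and whether strand was used in counting is not given in the sources used here.

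ACSS2 (chr20:34872146-34927962), which makes acetyl-CoA from acetate, was at 22.3, 22.8, 24.8, 20.4 and 18.7 RPKM in the DMSO libraries. It was at 31.2, 29.9, 25.2, 25.2 and 33.1 RPKM in the GW3965 libraries. The groups did not overlap, but GW3965 libraries 3 and 4 exceeded DMSO library 3 by less than the SD of the DMSO libraries. The means were 21.8 ± 2.30 and 28.9 ± 3.57 RPKM, and the log2 fold change was 0.41 with a 95% interval from 0.19 to 0.62. Its unadjusted p was 0.00167, and it was not past the threshold over all genes (limma adjusted p = 0.221).

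Of the 2 carboxylases, ACACA, the cytosolic enzyme that supplies FASN, was the more abundant. ACACA (chr17:37084988-37406818) was at 14.7, 13.6, 14.4, 16.6 and 13.7 RPKM in the DMSO libraries and at 17.8, 16.6, 18.5, 18.5 and 19.4 RPKM in the GW3965 libraries. The highest DMSO library (library 4) and the lowest GW3965 library (library 2) nearly met, at 16.58 and 16.63 RPKM. The means were 14.6 ± 1.19 and 18.2 ± 1.03 RPKM, and the log2 fold change of 0.32 (95% interval 0.17 to 0.46) did not pass (limma adjusted p = 0.143). Without DMSO library 4 the log2 fold change was 0.36 and passed the threshold (limma adjusted p = 0.0430).

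ACACB (chr12:109116595-109268226), which is tied to the mitochondrial membrane and known for restraining fatty acid oxidation, was at 2.91, 2.89, 2.78, 3.30 and 2.83 RPKM in the DMSO libraries. With GW3965 it was at 3.10, 3.24, 3.43, 3.15 and 3.31 RPKM. DMSO library 4 lay among the GW3965 values, while the other 4 DMSO libraries were below all of them. The means were 2.94 ± 0.208 and 3.25 ± 0.131 RPKM, with a log2 fold change of 0.14 (95% interval -0.002 to 0.28, limma adjusted p = 0.720).

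FASN (chr17:82078333-82098332), the synthase itself, was at 76.7, 70.1, 75.8, 85.1 and 77.8 RPKM in DMSO libraries 1 to 5. It was at 147, 142, 148, 141 and 148 RPKM in GW3965 libraries 1 to 5. All GW3965 libraries lay far above all DMSO libraries, and their spread was smaller (SD 3.27 against 5.38 RPKM). The mean went from 77.1 to 145 RPKM, a log2 fold change of 0.91 (SE 0.06, 95% interval 0.79 to 1.04, limma adjusted p = 0.000108). This was the smallest p of all 20402 tested genes, whereas its log2 fold change ranked 162 among them. None of its 50-base windows, the length of a read, occurs in another gene of GENCODE 29. Over 23 alternative settings of the fit, which include each library left out in turn and the 3 libraries that stand apart left out together, its log2 fold change lay between 0.88 and 0.95 and its limma adjusted p between 1.88e-06 and 0.00843.

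SCD (chr10:100347124-100364834), the main desaturase for saturated fatty acids, was the most abundant of the 10 genes. It was at 232, 181, 196, 230 and 181 RPKM in the DMSO libraries and at 383, 370, 345, 362 and 366 RPKM in the GW3965 libraries. The groups were far apart, with the lowest GW3965 library at 345 RPKM and the highest DMSO library at 232 RPKM. The mean went from 204 ± 25.4 to 365 ± 13.8 RPKM, a log2 fold change of 0.85 (SE 0.08, 95% interval 0.67 to 1.03, limma adjusted p = 0.00151). It had the 8th smallest p of all tested genes. Over the same 23 settings the log2 fold change lay between 0.80 and 0.90 and the limma adjusted p between 4.42e-05 and 0.0221.

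SCD5 (chr4:82629539-82798857), the second human desaturase of this kind, was at 5.85, 4.73, 5.01, 6.12 and 4.55 RPKM in the DMSO libraries. With GW3965 it was at 5.21, 5.06, 5.37, 4.96 and 5.03 RPKM. All GW3965 libraries lay inside the DMSO range. The means were 5.25 ± 0.697 and 5.13 ± 0.166 RPKM, and the log2 fold change was -0.03 with a 95% interval from -0.21 to 0.16 (limma adjusted p = 0.982). The sign was positive without DMSO library 1 (0.015) or DMSO library 4 (0.031), with library quality weights (0.038) and without the 3 libraries that stand apart (0.014).

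**Figure D2:**
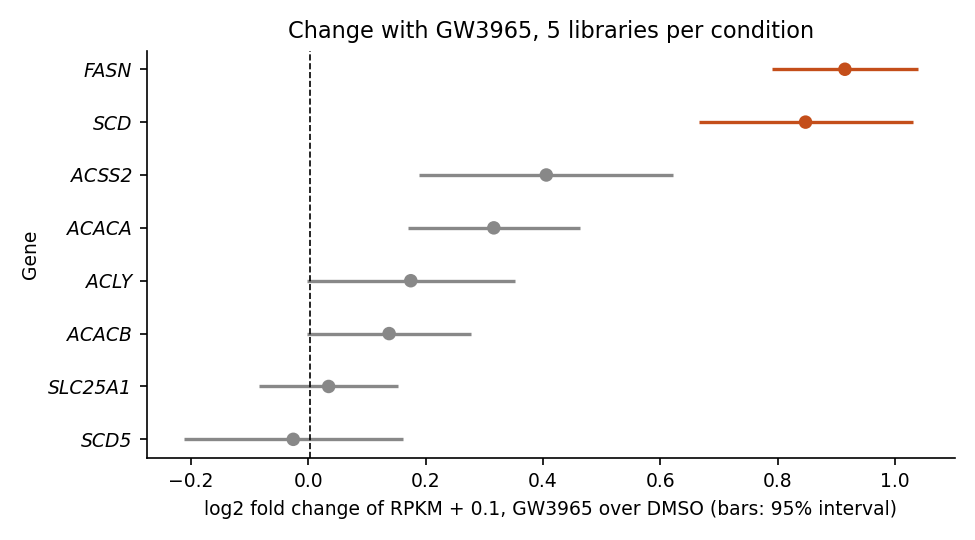
log2 fold change of RPKM + 0.1 (x axis), GW3965 over DMSO, of the 8 genes that passed the filter, with 95% intervals from limma as bars, 5 libraries per condition. FASN and SCD, in orange, are past the threshold, and the dashed line is the median of all tested genes at 0.0034.

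THRSP and MLXIPL did not reach the filter. THRSP (chr11:78063861-78068351) was at 0.321, 0.221, 0.253, 0.269 and 0.131 RPKM in the DMSO libraries and at 0.175, 0.128, 0.0900, 0.265 and 0.158 RPKM in the GW3965 libraries. These values rest on 50 recovered reads in all of DMSO and 34 in all of GW3965, and the difference did not pass (exact permutation p = 0.119, two-sided, not adjusted). Without DMSO library 5 or GW3965 library 4, the same exact permutation test gave p = 0.0476. THRSP also shares 48 exonic bases on the opposite strand with NDUFC2, which was at 12.7 RPKM in DMSO and 12.1 RPKM with GW3965, and reads of the 2 genes cannot be told apart there if strand was not used. MLXIPL (chr7:73593194-73624543) was at 0.162, 0.118, 0.247, 0.136 and 0.179 RPKM in DMSO and at 0.336, 0.260, 0.137, 0.235 and 0.154 RPKM with GW3965. Its groups, of 140 and 194 reads, overlapped (exact permutation p = 0.246).

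Counted together, 7 of the 8 tested genes had a positive log2 fold change, against 51.1% of all tested genes, with a median of 0.25 against 0.0034. There were 4 with an unadjusted p under 0.05 (FASN, SCD, ACACA and ACSS2), against 6.99% of all tested genes. The same 4 had all GW3965 libraries above all DMSO libraries, against 1.35% of all tested genes. Past the threshold over all genes were 2 of 8, or 25.0%, all of them higher, against 0.147% of all tested genes that passed as higher. The number was 2 or 3 under each of the 23 alternative settings, and the third gene, where there was one, was ACACA. The steps at which the 2 called genes act are the assembly of palmitate and its desaturation, and none of the 3 genes that deliver cytosolic acetyl-CoA passed.

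Some libraries were high for several genes at once. DMSO library 4 was the highest DMSO library for 6 of the 8 tested genes (SLC25A1, ACLY, ACACA, ACACB, FASN and SCD5) and the lowest for none. GW3965 library 5 was the highest GW3965 library for 4 (ACLY, ACSS2, ACACA and FASN). Whether these libraries differ in culture or in RNA was not tested. The same count was not made over all tested genes, so it is not known whether it is particular to this pathway.

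Ratios of 2 genes within a library do not depend on the scaling between libraries, and 7 were compared with two-sided exact permutation tests, adjusted over the 7. The smallest p that 5 against 5 libraries allow is 0.00794. The ratio of the 2 desaturases rose. SCD was 39.7, 38.4, 39.1, 37.5 and 39.8 times SCD5 in the DMSO libraries and 73.5, 73.2, 64.2, 73.0 and 72.8 times SCD5 in the GW3965 libraries. The DMSO ratios were close together although both genes varied between these libraries, and the lowest GW3965 ratio, in library 3, was still far above them. The difference of log2 ratios was 0.87 (SE 0.04, exact permutation p = 0.00794, adjusted p = 0.0185). Since SCD5 by itself showed no detected change, this mainly restates the rise of SCD in the same libraries and is no separate check of it.

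FASN also rose relative to ACACA and ACLY, which act before it. These ratios use the same libraries as the rise of FASN, so they are no separate check of it. They show that it rose more than these genes. Relative to ACACA it went from 5.28 to 7.99 (geometric means of RPKM ratios), with 5.13 to 5.66 in the DMSO libraries and 7.63 to 8.53 in the GW3965 libraries, and the difference of log2 ratios was 0.60 (SE 0.04, exact permutation adjusted p = 0.0185). Relative to ACLY it went from 1.47 to 2.45, a difference of log2 ratios of 0.74 (SE 0.08, exact permutation adjusted p = 0.0185). Neither pair of groups overlapped. The ratio of FASN to SCD was 0.380 in DMSO and 0.398 with GW3965, and the difference of 0.07 in log2 ratio (SE 0.07) did not pass (exact permutation adjusted p = 0.389).

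The carboxylases and the acetyl-CoA sources gave smaller differences. ACACA to ACACB went from 4.96 to 5.60, a difference of log2 ratios of 0.18 (SE 0.05, exact permutation adjusted p = 0.0278), with GW3965 library 2 inside the DMSO range. This call was lost without any one of DMSO libraries 1, 2 and 5 and GW3965 libraries 1, 3, 4 and 5, with differences between 0.16 and 0.19. ACLY to SLC25A1 was 1.40 in DMSO and 1.55 with GW3965 (exact permutation adjusted p = 0.0778), and it passed without DMSO library 4 (0.16 in log2) or GW3965 library 2 (0.16). ACLY to ACSS2 was 2.42 and 2.06, a difference of -0.23 in log2 ratio that did not pass (exact permutation adjusted p = 0.130). Without the 3 libraries that stand apart no ratio could pass, since 4 against 3 libraries allow no p below 0.0571, and the differences were then 0.85 for SCD to SCD5, 0.55 for FASN to ACACA and 0.72 for FASN to ACLY.

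**Figure D3:**
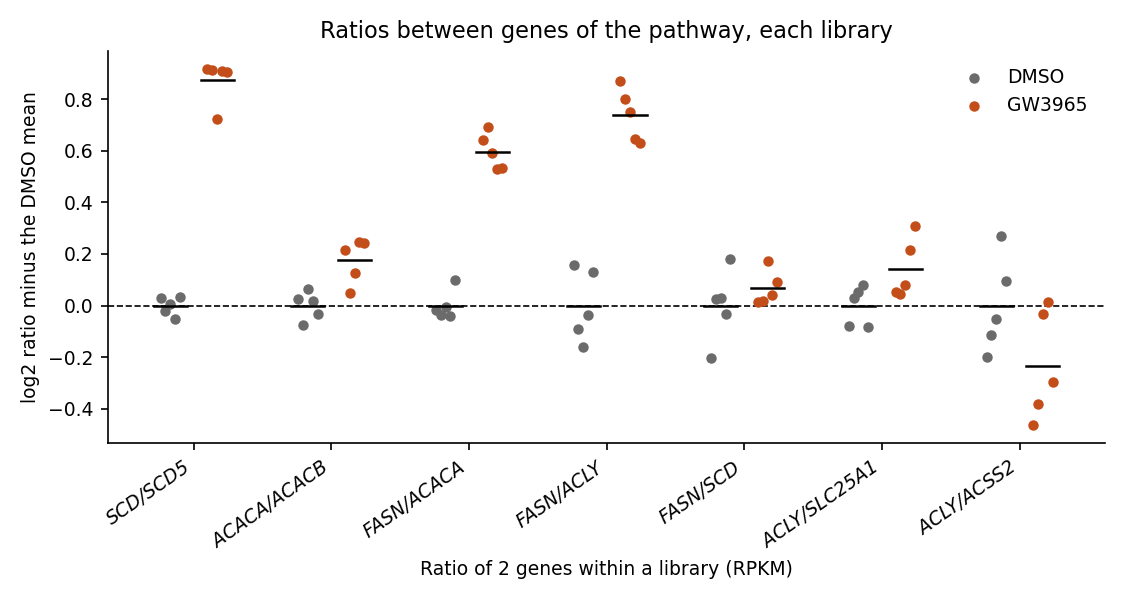
log2 ratio of 2 genes within a library, minus the mean of the DMSO libraries (y axis), for 7 pairs, with each library as a point and the group mean as a black line. SCD to SCD5, FASN to ACACA and FASN to ACLY lie at 0.60 to 0.87 on average with GW3965 without overlap, whereas FASN to SCD overlaps between the conditions.

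The genes whose pattern was most like that of FASN and of SCD were found by the root mean square difference of log2 values, each relative to its own DMSO mean, over the 10 libraries. Since both rose, genes that rose by a like amount come first, and no test is attached. For FASN they were STK39 (0.107), SCD (0.107), SCDP1 (0.139), AC004817.3 (0.140) and SREBF1 (0.154). For SCD they were SCDP1 (0.0583), STK39 (0.102), AC126365.1 (0.104), FASN (0.107) and MYLIP (0.125). STK39, a kinase known for the control of ion transporters, went from 10.4 to 18.2 RPKM, with a log2 fold change of 0.81 (limma adjusted p = 0.000124). Among the 10 genes studied, SCD ranked 2 of all genes in likeness to FASN, ACSS2 133, ACACA 194, ACLY 1176, ACACB 1598, SLC25A1 5424 and SCD5 9628.

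Of the genes most like SCD, SCDP1 and AC126365.1 share sequence with it. SCDP1 is a processed pseudogene of SCD (chr17:20784645-20785725), and AC126365.1 is an annotated lincRNA (chr17:20788071-20789584) beside it. Of the 50-base windows of SCD, 4.42% occur in other genes, with 121 windows in AC126365.1 and 114 in SCDP1, and 11.05% of the windows of SCDP1 occur in SCD. SCDP1 was at 53.3, 39.5, 46.6, 49.97 and 40.3 RPKM in the DMSO libraries and at 81.5, 79.1, 75.8, 82.7 and 77.6 RPKM in the GW3965 libraries. Its reads were between 4.36% and 4.91% of those of SCD in every library, in both conditions, so the 2 genes kept a nearly constant proportion. AC126365.1 went from 11.1 to 19.2 RPKM. Whether reads counted for SCDP1 and AC126365.1 came from SCD transcripts was not tested, and their values are uncertain for this reason. With the reads of SCDP1 added to those of SCD, not scaled for depth, the range was 32176 to 47877 reads in DMSO and 64979 to 80954 reads with GW3965, without overlap. Since SCDP1 kept a nearly constant proportion to SCD, this sum could only follow SCD and is no separate check.

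**Figure D4:**
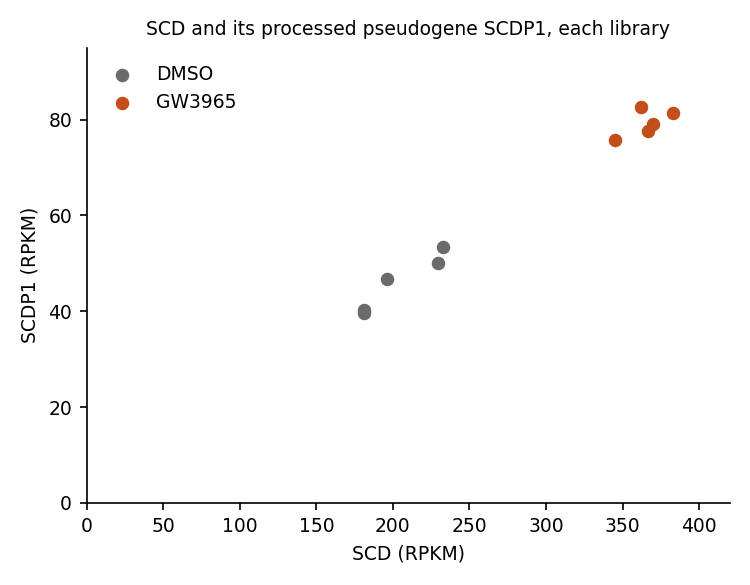
RPKM of SCD (x axis) and of its processed pseudogene SCDP1 (y axis) in each of the 10 libraries, both axes from 0. The 5 GW3965 libraries (orange, SCDP1 at 75.8 to 82.7 RPKM) lie apart from the 5 DMSO libraries (grey, 39.5 to 53.3 RPKM). The proportion given in the text is of reads and not of RPKM.

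Genes of neighbouring steps were taken from 4 lists, also chosen with earlier results of these data known. Of all tested genes, 51.1% had a positive log2 fold change, 6.99% had an unadjusted limma p under 0.05 and 0.147% passed as higher. The 17 regulators of lipogenesis were all tested. Of these, 7 had a positive log2 fold change, 3 had an unadjusted limma p under 0.05 and 2 passed, both higher, with a list median of -0.01. SREBF1, which encodes SREBP-1, went from 12.5 ± 1.46 to 20.9 ± 1.34 RPKM, with all DMSO libraries between 10.9 and 14.1 RPKM and all GW3965 libraries between 18.8 and 22.04 RPKM. INSIG1, which retains SREBPs in the endoplasmic reticulum and is itself an SREBP target, went from 21.97 ± 2.28 to 31.3 ± 1.68 RPKM, with a log2 fold change of 0.52 (limma adjusted p = 0.0312). The call of SREBF1 was lost without the 3 libraries that stand apart (log2 fold change 0.71, limma adjusted p = 0.0907), and that of INSIG1 under 13 of the 23 alternative settings. The lowest of the list was RXRB, a partner receptor of the LXRs, at -0.07. Some genes of the list were looked up after their values were seen. The LXR genes NR1H3 and NR1H2 had log2 fold changes of -0.01 and -0.02 and did not pass. MID1IP1, the paralog of THRSP, was at 3.29 ± 0.345 RPKM in DMSO and 4.48 ± 0.303 RPKM with GW3965, without overlap, with a log2 fold change of 0.44 and did not pass (limma adjusted p = 0.0801).

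The supply of acetyl-CoA, malonyl-CoA and NADPH was covered by 16 genes, of which 13 were tested. Of these, 8 had a positive log2 fold change, 3 had an unadjusted limma p under 0.05 and 1 passed, with a median of 0.02. ME1, the malic enzyme that yields cytosolic NADPH for FASN, went from 21.2 ± 1.16 to 29.4 ± 0.669 RPKM, a log2 fold change of 0.47 (limma adjusted p = 0.00266). Its DMSO libraries were all at or below 22.9 RPKM and its GW3965 libraries all at or above 28.9 RPKM. Without the 3 libraries that stand apart its log2 fold change was 0.49, just short of the threshold (limma adjusted p = 0.0525). CS, the mitochondrial citrate synthase, was lowest at -0.07.

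Elongation and desaturation beyond palmitate had 16 genes, of which 12 were tested. A positive log2 fold change was seen for 11 of them, 5 had an unadjusted limma p under 0.05 and 1 passed, with a list median of 0.11. FADS2, a desaturase of polyunsaturated fatty acids, passed narrowly, from 72.4 ± 5.41 to 93.6 ± 2.79 RPKM, with a log2 fold change of 0.37 (limma adjusted p = 0.0459), and lost the call under 15 of the 23 settings. ELOVL6, the elongase of palmitate, had the highest log2 fold change of the list at 0.45 and did not pass (limma adjusted p = 0.568), with overlapping groups of 0.954 to 1.62 and 1.41 to 2.12 RPKM. TECR, a reductase of the elongation cycle, was lowest at -0.02. In the separate mitochondrial pathway of fatty acid synthesis, which makes the precursor of lipoic acid, all 10 genes were tested, 4 had a positive log2 fold change and none passed with limma, on RPKM or with voom on the recovered reads, with 1 and 0 genes at an unadjusted p under 0.05, against 6.99% and 6.68% of all tested genes. They ranged from -0.13 for LIPT1 to 0.25 for LIPT2, with a median of -0.02.

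**Figure D5:**
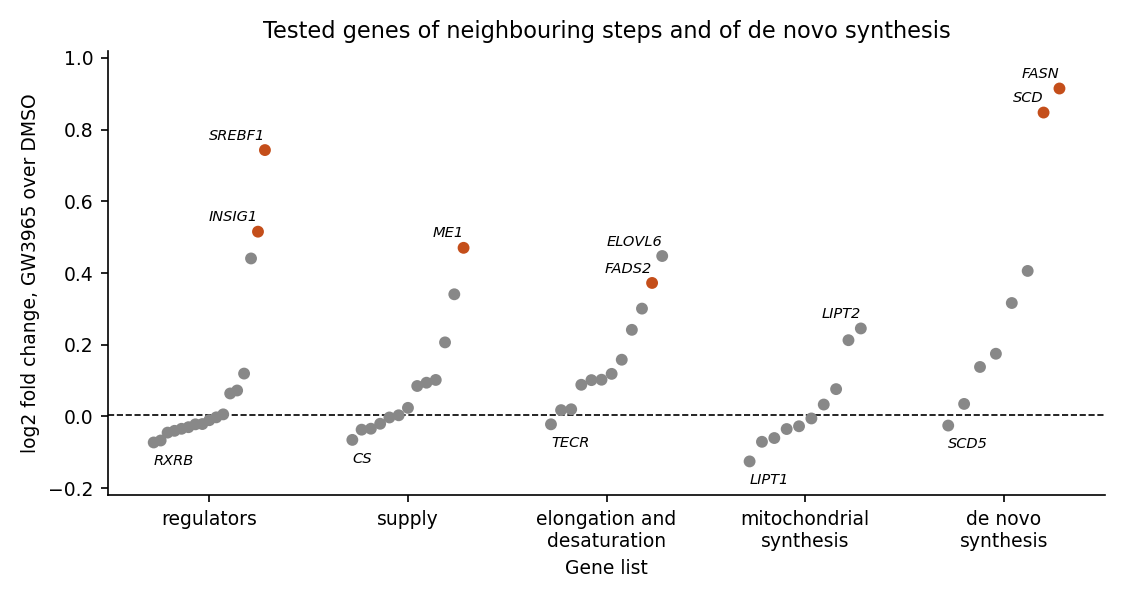
log2 fold change, GW3965 over DMSO (y axis), of the tested genes of 4 neighbouring lists and of de novo synthesis, sorted within each list, with the dashed line at the median of all tested genes. Genes past the threshold are orange (SREBF1, INSIG1, ME1, FADS2, FASN and SCD), and the grey genes with a name are the lowest or highest of a list.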

How the data were processed

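RNA of PC3 cells was measured in 5 libraries treated with DMSO and 5 treated with GW3965, grouped by their titles. The authors sequenced single reads of 50 bases, aligned them with HISAT2, counted them per gene and deposited RPKM values of 62656 genes without a stated filter. The submitters' processing notes name hg38 and HISAT2 2.1.0 with HTSeq 0.11.2, whereas the methods name a mouse genome, and all identifiers are human. The labels name polyA RNA and the protocol ribosome-depleted total RNA. The deposited RPKM values came out as whole reads times a library factor for 100% of the values above 0 (tolerance 1e-05 reads), which gave the depth of 30428114 to 41635177 reads and median-of-ratios size factors as the scaling. The genes' lengths in the table equal those of GENCODE 29 for 2 of the 10 genes and differ by up to 4.85% for the others. Depth leaves THRSP and MLXIPL at 4 to 55 reads per library, and intervals cover the spread between libraries.

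The main test was limma 3.58.1 (R 4.3.3; lmFit, eBayes with trend) on log2(RPKM + 0.1), on genes that averaged 0.5 RPKM or more, Benjamini-Hochberg adjusted over 20402 genes. Ratios and genes below the filter were compared with exact permutation tests (scipy 1.17.1). The fit was tested on simulated data. No libraries were near-identical (chi-square per degree of freedom 7.47 to 84.4). Alternatives were another pseudocount, filter, scaling, variance model or covariate, voom on the recovered reads, a replicate block and each library left out, and, added after the data were seen, 3 libraries left out together and the last 2 kinds for the genes below the filter. The 10 genes and all lists were chosen with earlier results of these data known. Named were the 10 genes, in each list those past the threshold and the highest and lowest, 4 LXR targets, and the 5 genes most like FASN and SCD. Mouse, protein and other experiments were not analysed here.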

Additional observations from a re-analysis of the deposited data

Results flagged for a closer look

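Within each condition, the gap between the highest or lowest library and its nearest neighbour was divided by the whole range, and values above 0.71, Dixon's limit for 5 libraries, were set aside. Of 34 groups of 5 libraries (10 genes and 7 ratios in 2 conditions), 3 passed this limit, where chance gives about 1.7. ACACB was highest in DMSO library 4 (3.30 RPKM, the other 4 at 2.78 to 2.91 RPKM), with a gap of 0.734 of the range. The ratio of SCD to SCD5 was lowest in GW3965 library 3 (64.2, the others at 72.8 to 73.5), with a gap of 0.931. The ratio of FASN to ACACA was highest in DMSO library 5 (5.66, the others at 5.13 to 5.26), with a gap of 0.743.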

How the results depend on the processing

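FASN and SCD stayed past the threshold under all 23 alternatives, and 2 or 3 of the 10 genes passed in each. ACACA passed as well with library quality weights, with the first principal component as a covariate and without DMSO replicate 4. The number of genes past the threshold, 32 of all tested genes, was 21 with no filter, 20 without the trend, 56 with library quality weights, 21 with the 7SL share as a covariate, 146 with the first principal component as a covariate, 63 with voom on the recovered reads, 18 without the 3 libraries that stand apart and 17 to 38 with each library left out. Of the fits with 1 library left out, those without GW3965 replicate 2 or 4 gave the lowest number (17). Of the neighbouring steps, 4 genes passed, against 2 with no filter, with quantile normalization, without the trend and with the 7SL share, 0 (limma, 11 at an unadjusted p under 0.05) without the 3 libraries, 5 with voom, and 2 to 4 with each library left out. The cause was not tested. The sign of SCD5 turned with library quality weights (0.038), without DMSO replicate 1 (0.015) or 4 (0.031; -0.074 to 0.031 with each library left out) and without the 3 libraries (0.014), and that of TECR with library quality weights (0.012), with the 7SL share (0.0057) and without DMSO replicate 4 (0.0048; -0.050 to 0.0048 with each left out). The 4 ratios past the threshold became 3 to 5 with each library left out and 0 without the 3 libraries, where none could pass. THRSP, with an unadjusted exact permutation p of 0.119, reached an unadjusted 0.0476 without DMSO replicate 5 or GW3965 replicate 4.

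The replicate numbers did not pair the libraries (correlations of -0.14 to 0.16 between same-numbered libraries). With the replicate block, 16 of all tested genes, 1 gene of the neighbouring steps and 0 ratios passed, the last because 5 pairs allow no sign-flip p below 0.0625, and FASN, SCD and ME1 kept their calls. Those of SREBF1 (limma adjusted p = 0.0643), MYLIP (0.0724), INSIG1 (0.180) and FADS2 (0.124) were lost with the block.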
